A study of Mus musculus with 18 samples.

Results

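The p24 proteins and the lectin LMAN1 are receptors that load newly made proteins into transport vesicles between the endoplasmic reticulum (ER) and the Golgi. The 10 genes described here were chosen by symbol: *Tmed2*, *Tmed3*, *Tmed4*, *Tmed5*, *Tmed7*, *Tmed9* and *Tmed10*, which encode 7 p24 proteins, *Lman1*, its partner *Mcfd2*, and *Surf4*. Each had a row in all 3 count tables, which together list 20202 genes, and each passed the filter on low counts in every comparison.

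p24 proteins are small membrane proteins that fall into the subfamilies alpha (*Tmed4*, *Tmed9*), beta (*Tmed2*), gamma (*Tmed3*, *Tmed5*, *Tmed7*) and delta (*Tmed10*), and members of different subfamilies join into complexes. They cycle in COPII and COPI vesicles and are known for the export of proteins with a glycosylphosphatidylinositol (GPI) anchor. LMAN1, also called ERGIC-53, is a mannose-binding lectin that with the calcium-binding protein MCFD2 carries coagulation factors V and VIII in humans, and SURF4 is an ER export receptor for soluble proteins. Osteoblasts secrete much of the collagenous bone matrix through the same ER exit sites.

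RNA was sequenced from 6 mouse cell populations with 3 libraries each. The GFP+ (hi) cells of fresh long bone of Col2.3GFP transgenic mice were set against GFP- cells of the same kind of bone, and GFP+ (hi) cells of bone chips kept under osteogenic differentiation were set against the GFP- cells of such cultures. GFP+ (hi) osteoblasts made by osteogenic differentiation of Col2.3GFP embryonic stem cells (ESC-OB) were set against ESC. The transgene drives GFP from a fragment of the *Col1a1* promoter, so GFP marks the maturing osteoblast lineage, and GFP- cells are all sorted cells without the signal rather than 1 cell type. The ESC carry the treatment label osteogenic differentiation as well, but are titled ESC cells and have embryonic stem cells as cell type, and they are called ESC here. Ages and the number of animals behind a library are not given in the sources used here, and nothing states that replicates came from separate animals or cultures, so the p-values measure the spread between these libraries. Sex runs in part with GFP in bone. The Y-linked *Ddx3y* stood at 0.137, 24.1 and 0.165 CPM of all counts in GFP+ (hi) replicates 1 to 3, against 83.2, 161 and 58.6 CPM in GFP- replicates, and the X-linked *Xist* at 16.9, 1.03 and 11.5 CPM against 0, 0.365 and 1.55 CPM. The bone calls were therefore also run with GFP+ (hi) replicate 2 alone against the 3 GFP- libraries, a choice made after seeing the data, in which the lone library is assumed to vary like the others. All bone chip libraries had *Xist* at 202 to 685 CPM and *Ddx3y* at 0 to 0.0708 CPM. Sex thus also runs in part with source, and this fit does not remove it when bone is compared with bone chips.

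Libraries held 4920977 to 43874837 counts. Reads of *Col1a1* alone made up 36.2 to 37.5% of a bone GFP+ (hi) library and 0.805 to 1.59% of a bone GFP- library, and how libraries are scaled therefore matters. Values below are CPM, the counts of a gene relative to its library total, with totals scaled within each source by TMM factors, which assume that most genes do not change. Scaled by total counts alone, the median log2 fold change of all genes fell to -1.06 in bone and -0.60 in bone chips, a shift that the values given below for total counts alone include. Of the osteoblast markers, 10 of 10 were higher in bone GFP+ (hi) cells, 9 of 10 in bone chip GFP+ (hi) cells and 6 of the 7 that could be tested in ESC-OB. Their summed level was 844050 to 893740 CPM in bone GFP+ (hi) libraries and 307564 to 375821 CPM in bone chip GFP+ (hi) libraries. In ESC-OB it was 5817 to 16320.5 CPM, against 674 to 891 CPM in ESC, and *Ibsp* varied there (541 ± 736 CPM, SD). Chondrocyte markers ran the other way in bone, where 8 of 9 were lower in GFP+ (hi) cells and their summed level was 10759 to 13531 CPM in GFP+ (hi) libraries against 100005 to 207929 CPM in GFP- libraries, with none at 0. In bone 8 of 9 pluripotency markers were higher in GFP+ (hi) libraries at low levels, such as *Pou5f1* with a mean of 3.74 CPM against 0.0381 CPM, and their summed levels, led by *Klf2*, overlapped at 392 to 438 CPM and 317 to 525 CPM. Epithelial markers were higher in ESC-OB for 7 of 8 genes, with a summed level of 3643 to 5361 CPM against 436 to 575 CPM in ESC, where *Krt6a* was at 0. Blood markers, led by *Lyz2*, summed to 408 to 645 CPM in bone chip GFP+ (hi) libraries, against 365, 3144 and 276 CPM in GFP- replicates 1 to 3, so that GFP- replicate 2 stood apart. Without it 4 members were called higher in bone chips (*Tmed2*, *Tmed9*, *Lman1* and *Surf4*), beside 21.8% of all genes tested, and *Tmed5* lower, beside 23.6%. The part of these cells in the results below was not tested, and in such bulk samples fewer cells of a type and less RNA per cell cannot be told apart.

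A gene was called higher or lower at an adjusted p under 0.05 in edgeR's quasi-likelihood test, adjusted over all genes tested in the source. In bone none of the 10 genes was called higher, beside 19.5% of all 12559 genes tested, and 1 of 10 (*Tmed9*) was called lower, beside 22.1%. At an unadjusted p under 0.05 there were 3 (*Tmed5*, *Tmed9* and *Lman1*), and DESeq2 called *Lman1* higher. In bone chips 6 of 10 were called higher (*Tmed2*, *Tmed7*, *Tmed9*, *Lman1*, *Mcfd2* and *Surf4*), beside 20.4% of 12841 genes, and *Tmed5* was called lower, beside 23.1%. In ESC-OB 8 of 10 were called higher, beside 43.0% of 15417 genes, and none was called lower by edgeR or at an unadjusted p under 0.05, beside 34.7%. The exceptions were *Tmed9* and *Lman1*, which were not called in ESC-OB. The median log2 fold change of the members was 0.02 in bone, beside -0.0013 for all genes tested. It was 0.27 in bone chips, beside -0.04, and 1.41 in ESC-OB, beside 0.22. In simulated data in which 200 genes drawn at any level were changed, a log2 change of 1 was called for 26.3% of such genes in bone. In bone chips it was 56.7%. In the real data 41.6% of all genes tested were called in bone, so these are not the shares for the 10 genes. A gene without a call in bone can still differ.

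No member was called higher in all 3 sources by edgeR, beside 4.82% of the genes tested in all of them. *Tmed2*, *Tmed7*, *Mcfd2* and *Surf4* were called higher in both bone chips and ESC-OB, beside 10.7% of the genes tested in both. Scaled by total counts alone, 9 of 10 members were called lower in bone, beside 62.0% of all genes tested, and 5 in bone chips, beside 61.7%. None was then called higher in bone chips, beside 8.24%, and the 8 calls in ESC-OB became 9, beside 47.4%.

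**Figure D1:**
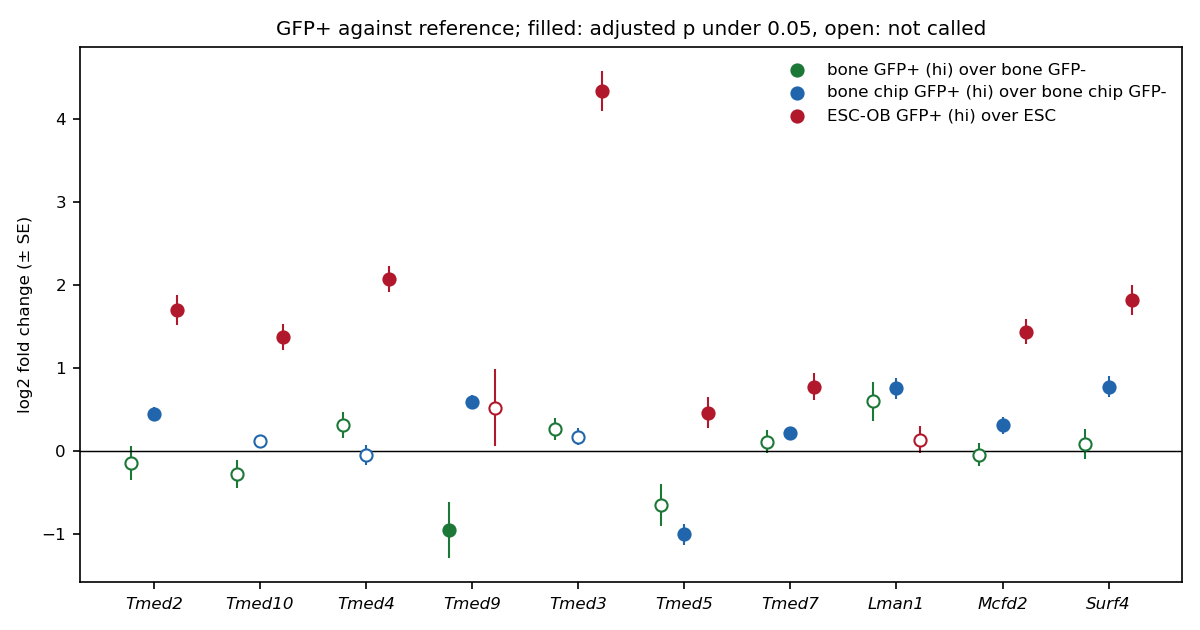
Log2 fold change (± SE, 3 libraries against 3) of each gene for GFP+ (hi) over GFP- cells in bone and bone chips and for ESC-OB over ESC; filled points have an adjusted p under 0.05. *Tmed3* in ESC-OB stands at 4.34, *Tmed9* in bone at -0.95 and *Tmed5* in bone chips at -0.995; with total counts alone every bone value is below 0.

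*Tmed2*, the beta p24, had the highest mean level per kilobase of exon of the 10 in each of the 6 populations. *Surf4* came within its spread in bone GFP+ (hi) cells (392 ± 24 against 406 ± 39) and bone GFP- cells (336 ± 66 against 407 ± 106). The same held in bone chip GFP+ (hi) cells (154 ± 21 against 157 ± 4, SD). In bone *Tmed2* had 610.0, 573 and 503 CPM in GFP+ (hi) libraries, against 597, 797 and 466 CPM in GFP- libraries, which overlapped (log2 fold change -0.14 ± 0.21 SE, adjusted p = 0.615). In bone chips *Tmed2* had 319, 305 and 318 CPM in GFP+ (hi) libraries, against 220, 229 and 241 CPM in GFP- libraries. The chip libraries lay apart and *Tmed2* was higher by 0.45 ± 0.08 on the log2 scale (adjusted p = 0.00434), although with total counts alone the value was -0.11 and not called. In ESC-OB *Tmed2* had 637, 495 and 583 CPM, against 158, 202 and 166 CPM in ESC, a rise of 1.70 ± 0.18 (adjusted p = 7.98e-06).

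*Tmed10*, the delta p24 that pairs with *Tmed2* in p24 complexes, had 253, 237 and 251 CPM in bone GFP+ (hi) libraries, against 268, 371 and 258 CPM in GFP- libraries. GFP- replicate 2 was highest here as it was for *Tmed2*, and the log2 fold change of -0.27 ± 0.17 was not called (adjusted p = 0.228). In bone chips *Tmed10* had 242, 249 and 228 CPM in GFP+ (hi) libraries, against 218, 224 and 220 CPM in GFP- libraries, which lay apart but close together (0.12 ± 0.08, adjusted p = 0.256). In ESC-OB *Tmed10* had 401, 394 and 395 CPM, against 156, 161 and 141 CPM in ESC, higher by 1.38 ± 0.15 (adjusted p = 1.11e-05). Per kilobase the ratio of *Tmed10* to *Tmed2*, which does not depend on scaling, was 0.476 ± 0.030 in bone chip GFP+ (hi) cells and 0.599 ± 0.027 in GFP- cells (SD, n = 3), with no overlap. In bone the ratio was 0.276 ± 0.031 in GFP+ (hi) cells and 0.305 ± 0.035 in GFP- cells, and in ESC-OB it was 0.437 ± 0.054 against 0.547 ± 0.060 in ESC. The bone libraries overlapped, and the highest ESC-OB library and the lowest ESC library both stood at 0.497.

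*Tmed9*, an alpha p24, had estimates of opposite sign in fresh bone and in bone chips. In bone *Tmed9* had 80.5, 44.4 and 41.2 CPM in GFP+ (hi) libraries, against 61.7, 111 and 148 CPM in GFP- libraries. GFP+ (hi) replicate 1 lay above GFP- replicate 1, so that the groups overlapped, and the fall of 0.95 ± 0.34 was just past the threshold (adjusted p = 0.0494). The call was lost without GFP- replicate 2 (-0.90, adjusted p = 0.118), GFP- replicate 3 (-0.61, adjusted p = 0.206), GFP+ (hi) replicate 2 (-0.81, adjusted p = 0.134) or GFP+ (hi) replicate 3 (-0.76, adjusted p = 0.111), with the replicate number as a block (-0.94, adjusted p = 0.107) and among the libraries with *Ddx3y* (-1.25, adjusted p = 0.0566). In bone chips *Tmed9* had 192, 185 and 192 CPM in GFP+ (hi) libraries, against 119, 126 and 131 CPM in GFP- libraries. These libraries were tight and lay apart, and *Tmed9* rose by 0.60 ± 0.08 (adjusted p = 0.00115), but by 0.04 with total counts alone, where it was not called. The joint fit of 18 libraries did not call it either (0.59, adjusted p = 0.344).

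The GFP effect on *Tmed9* differed between the sources by -1.54 ± 0.41 on the log2 scale, bone minus bone chips, in the interaction test of edgeR over 12 libraries (adjusted p = 0.0131), beside 30.3% of 13574 genes called in either direction. The call was lost with the replicate number as a block (-1.54, adjusted p = 0.0513) and in the joint fit of 18 libraries (-1.39, adjusted p = 0.0871), and was kept with the bone libraries that hold *Ddx3y* (-1.84, adjusted p = 0.0137). In ESC-OB *Tmed9* had 99.6, 260 and 47.6 CPM, against 92.3, 99.8 and 90.0 CPM in ESC. The ESC libraries lay close together within the range of the 3 ESC-OB libraries, and the difference of 0.53 ± 0.46 was not called (adjusted p = 0.309). It was -0.28 without ESC-OB replicate 2 and 1.00 without ESC-OB replicate 3, where it was called (adjusted p = 0.0359). Genes of short transcripts were examined beside it after its values were seen. The 145 genes with at most 800 bases of exon deviated from their mean over the ESC-OB libraries by a median of -0.16, 0.31 and -0.16 log2 units in replicates 1, 2 and 3, which puts replicate 2 highest as for *Tmed9*. Replicates 1 and 3 were alike in this, while *Tmed9* had 99.6 and 47.6 CPM in them. In bone GFP+ (hi) replicates 1 to 3 the deviations were -0.03, -0.13 and 0.16, while *Tmed9* was highest in replicate 1. The highest replicates differed in bone chip GFP- cells as well, and were the same in bone GFP-, bone chip GFP+ (hi) and ESC. *Tmed9* itself has 1506 bases of exon, and the part of transcript length in its spread was not tested.

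*Tmed4*, the other alpha p24, was steadier. In bone *Tmed4* had 42.1, 36.2 and 36.2 CPM in GFP+ (hi) libraries, against 28.7, 32.0 and 31.3 CPM in GFP- libraries, which lay apart without a call (0.32 ± 0.15, adjusted p = 0.128). In bone chips *Tmed4* had 30.8, 35.5 and 27.7 CPM in GFP+ (hi) libraries, against 32.1, 35.6 and 29.3 CPM in GFP- libraries, and these overlapped (-0.05 ± 0.12, adjusted p = 0.791). In ESC-OB *Tmed4* rose to 139, 146 and 128 CPM, against 32.1, 35.5 and 30.4 CPM in ESC, by 2.07 ± 0.16 (adjusted p = 6.09e-07). *Tmed4* thus had its highest level per kilobase in ESC-OB, whereas the means of *Tmed2*, *Tmed3*, *Tmed10*, *Lman1*, *Mcfd2* and *Surf4* were highest in a population of fresh bone. The ratio of *Tmed9* to *Tmed4* per kilobase was 8.85 ± 1.25 in bone chip GFP+ (hi) cells and 5.65 ± 0.72 in GFP- cells, and in bone it was 2.06 ± 0.61 in GFP+ (hi) cells and 4.99 ± 1.86 in GFP- cells.

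*Tmed3*, a gamma p24, had its highest levels in fresh bone and its lowest in ESC. In ESC-OB *Tmed3* had 130, 130 and 114 CPM, against 8.84, 4.71 and 5.65 CPM in ESC, which rest on 48, 85 and 27 counts. The libraries lay far apart, and the rise was 4.34 ± 0.24 on the log2 scale, 20.2-fold (adjusted p = 7.49e-08). In bone *Tmed3* had 233, 234 and 219 CPM in GFP+ (hi) libraries, against 191, 192 and 186 CPM in GFP- libraries. These lay apart, but the difference of 0.27 ± 0.13 was not called (adjusted p = 0.123). In bone chips *Tmed3* had 115, 102 and 120 CPM in GFP+ (hi) libraries, against 105, 89.5 and 104 CPM in GFP- libraries, which overlapped (0.18 ± 0.10, adjusted p = 0.210).

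*Tmed5*, a second gamma p24, was the lowest of the 10 per kilobase in each population but ESC, and was called lower in bone chips. In bone chips *Tmed5* had 34.2, 31.4 and 28.8 CPM in GFP+ (hi) libraries, against 54.0, 71.5 and 62.6 CPM in GFP- libraries. The libraries lay apart and the log2 fold change was -0.995 ± 0.126 (adjusted p = 0.000934), called in each alternative that was run. In bone *Tmed5* had 10.5, 8.05 and 13.3 CPM in GFP+ (hi) libraries, against 13.4, 19.1 and 17.4 CPM in GFP- libraries, with a difference of -0.64 ± 0.26 that was not called (adjusted p = 0.0705) but was called without GFP+ (hi) replicate 3 (-0.82, adjusted p = 0.0219). Among the libraries with *Ddx3y* the value was -1.03 (adjusted p = 0.0520). The difference between the effects in bone and bone chips was not called (0.35 ± 0.27, adjusted p = 0.361). In ESC-OB *Tmed5* had 63.2, 79.9 and 74.7 CPM, against 45.3, 65.3 and 45.6 CPM in ESC. ESC replicate 2 overlapped with ESC-OB replicate 1, and the rise of 0.47 ± 0.19 (adjusted p = 0.0405) lost its call without ESC replicate 1 (0.37, adjusted p = 0.127) or ESC replicate 3 (0.38, adjusted p = 0.156). In the annotation 395 exonic bases of *Tmed5* overlap with *Mtf2* on the opposite strand, and without a stated strand setting reads from there cannot be told apart.

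*Tmed7*, the other gamma p24, changed least among the p24 genes called in bone chips. In bone chips *Tmed7* had 126, 124 and 118 CPM in GFP+ (hi) libraries, against 104, 105 and 107 CPM in GFP- libraries. The libraries lay apart and *Tmed7* was higher by 0.22 ± 0.07 (adjusted p = 0.0450), a call lost with the replicate number as a block (0.22, adjusted p = 0.0658) and without any single chip library (adjusted p between 0.0505 and 0.157), while with total counts alone the value was -0.33. In bone *Tmed7* had 88.8, 81.8 and 84.3 CPM in GFP+ (hi) libraries, against 73.2, 84.1 and 77.8 CPM in GFP- libraries (0.12 ± 0.14, adjusted p = 0.530). In ESC-OB *Tmed7* had 197, 159 and 176 CPM, against 96.0, 115 and 98.4 CPM in ESC, higher by 0.78 ± 0.16 (adjusted p = 0.00102). *Tmed7* shares 838 exonic bases with *Ticam2* on the same strand. Within the gamma subfamily the ratio of *Tmed3* to *Tmed7* per kilobase was 4.74 ± 0.63 in ESC-OB and 0.424 ± 0.174 in ESC. It ran from 17.4 to 19.1 in bone GFP+ (hi) libraries and from 15.2 to 17.5 in bone GFP- libraries. The ratio of *Tmed5* to *Tmed7* was 0.295 ± 0.017 in bone chip GFP+ (hi) cells and 0.686 ± 0.093 in GFP- cells.

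**Figure D2:**
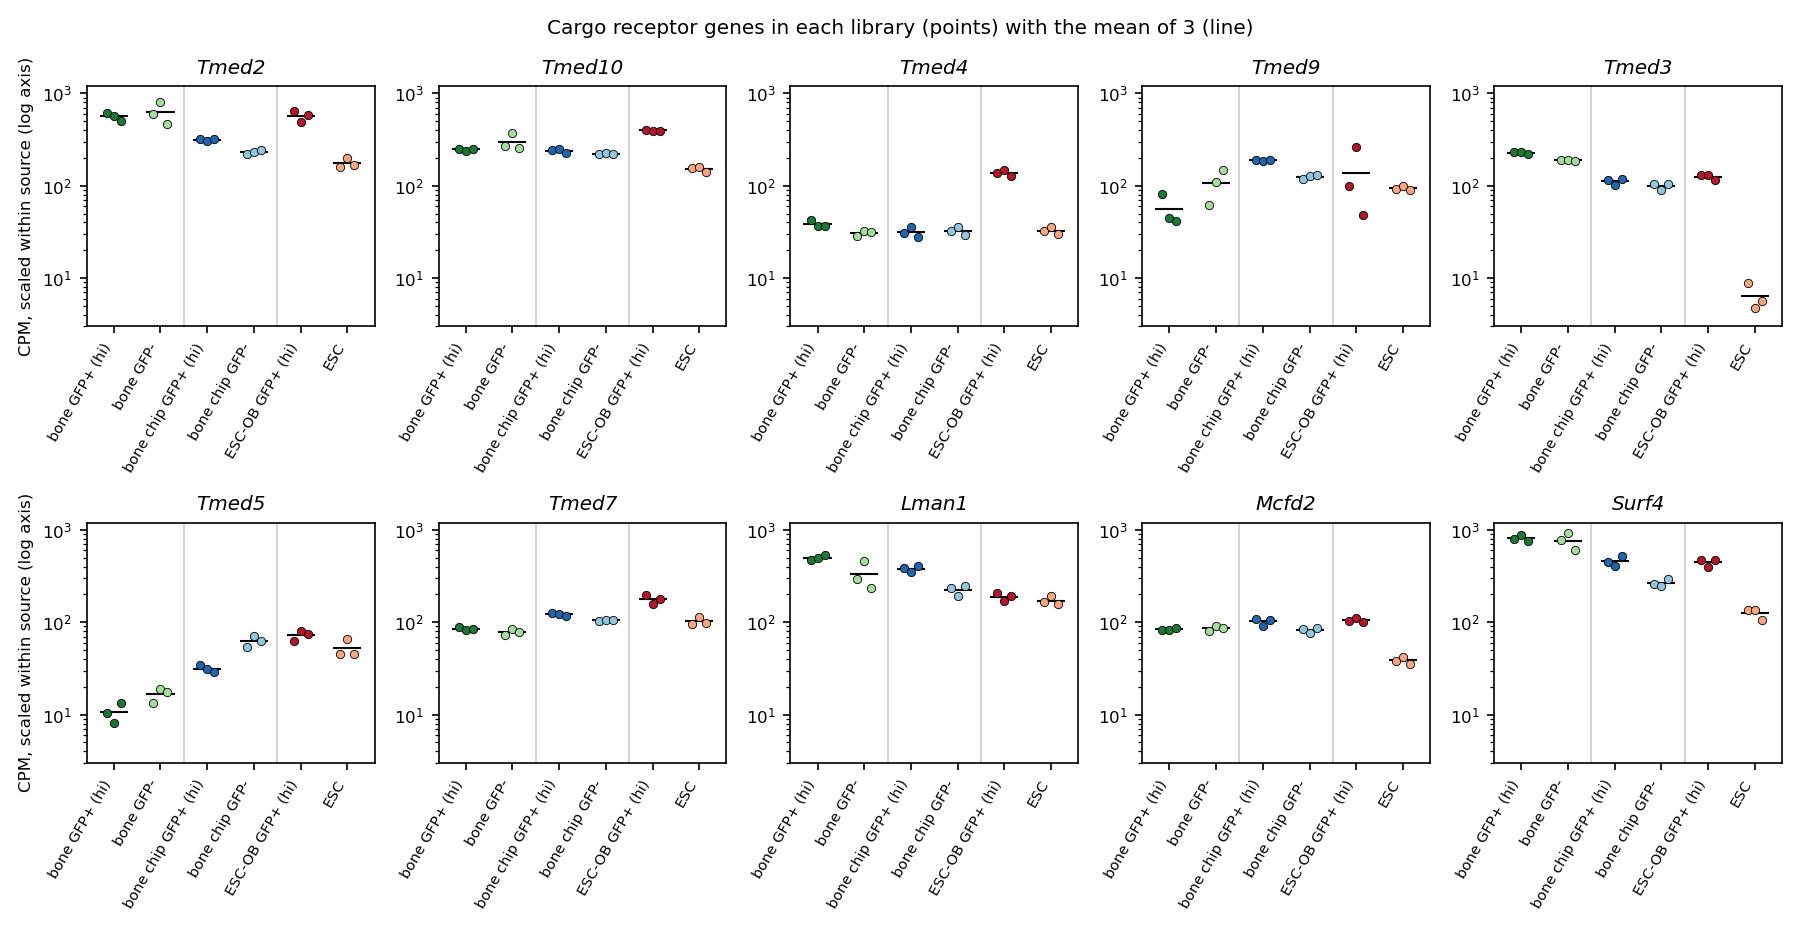
CPM of the 10 genes in each library (points) of the 6 populations, on a log axis, with the mean of 3 as a line; values are scaled within a source, so sources are not on one scale. The ESC-OB points of *Tmed9* spread from 47.6 to 260 CPM around its ESC points, and the ESC points of *Tmed3* lie at 4.71 to 8.84 CPM.

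*Lman1*, the lectin, was higher in GFP+ (hi) cells of bone chips and had no called difference in ESC-OB. In bone chips *Lman1* had 383, 345 and 408 CPM in GFP+ (hi) libraries, against 234, 191 and 245 CPM in GFP- libraries. These lay apart, higher by 0.76 ± 0.12 (adjusted p = 0.00282), and by 0.21 without a call with total counts alone. In bone *Lman1* had 475, 491 and 538 CPM in GFP+ (hi) libraries, against 291, 462 and 237 CPM in GFP- libraries. GFP- replicate 2 came near the GFP+ (hi) libraries, and the difference of 0.60 ± 0.23 was not called (adjusted p = 0.0634). It was 0.94 without that library (adjusted p = 0.00260) and 0.59 in DESeq2 (adjusted p = 0.0364), where it was called, but -0.49 with total counts alone (adjusted p = 0.153). The effects in bone and bone chips differed by -0.16 ± 0.30, which was not called (adjusted p = 0.731). In ESC-OB *Lman1* had 206, 168 and 192 CPM, against 165, 191 and 156 CPM in ESC, and the libraries overlapped (0.14 ± 0.16, adjusted p = 0.427). Without ESC-OB replicate 2 it was 0.29 and called (adjusted p = 0.0352).

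*Mcfd2*, which encodes the partner of LMAN1, followed another order. In ESC-OB *Mcfd2* had 104, 112 and 100.1 CPM, against 38.5, 42.1 and 35.4 CPM in ESC, a rise of 1.44 ± 0.15 (adjusted p = 7.55e-06). In bone chips *Mcfd2* had 110, 90.9 and 105 CPM in GFP+ (hi) libraries, against 83.5, 76.3 and 86.2 CPM in GFP- libraries. These lay apart and the rise of 0.31 ± 0.10 was called (adjusted p = 0.0427), but it was lost without any 1 of GFP+ (hi) replicates 1 and 3 and GFP- replicates 1 to 3 (0.26 to 0.37, adjusted p between 0.0603 and 0.155), and the value was -0.24 with total counts alone. In bone *Mcfd2* had 81.9, 81.9 and 87.5 CPM in GFP+ (hi) libraries, against 81.1, 90.8 and 85.8 CPM in GFP- libraries, which overlapped (-0.04 ± 0.13, adjusted p = 0.853). The ratio of *Lman1* to *Mcfd2* per kilobase was 2.44 ± 0.07 in bone GFP+ (hi) cells and 1.55 ± 0.48 in GFP- cells, and 1.52 ± 0.08 in bone chip GFP+ (hi) cells and 1.11 ± 0.08 in GFP- cells. In ESC-OB the ratio went the other way, at 0.732 ± 0.105 against 1.80 ± 0.05 in ESC (SD, n = 3 each). The libraries of the paired groups lay apart in each of the 3 sources.

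*Surf4* was, with *Tmed2*, among the leading members by level in fresh bone. In bone *Surf4* had 796, 880.4 and 752 CPM in GFP+ (hi) libraries, against 771, 913 and 603 CPM in GFP- libraries, which overlapped (0.09 ± 0.18, adjusted p = 0.738). In bone chips *Surf4* had 447, 402 and 524 CPM in GFP+ (hi) libraries, against 259, 249 and 292 CPM in GFP- libraries. The chip libraries lay apart, with a rise of 0.78 ± 0.13 (adjusted p = 0.00274) that was 0.22 and not called with total counts alone. The effect in bone was smaller than in bone chips by 0.69 ± 0.24 in size (log2 difference -0.69, adjusted p = 0.0424), a call that 10 of the 12 fits leaving out 1 library did not keep (-0.75 to -0.47, adjusted p between 0.0516 and 0.124) and that was also lost in the joint fit (-0.55, adjusted p = 0.0814) and with the bone libraries that hold *Ddx3y* (-0.55, adjusted p = 0.238). In ESC-OB *Surf4* had 470.4, 394 and 470.1 CPM, against 136, 136 and 105 CPM in ESC, higher by 1.82 ± 0.18 (adjusted p = 4.19e-06). In the annotation 144 exonic bases of *Surf4* overlap with *Surf2* on the opposite strand.

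On one scale for all 18 libraries and per kilobase of exon, *Tmed2* and *Surf4* led in bone GFP+ (hi) cells, with levels of 406 ± 39 and 392 ± 24 CPM per kilobase that did not differ beyond their spread. *Tmed3* followed at 275 ± 8, *Lman1* at 124 ± 9 and *Tmed10* at 111 ± 6. In ESC-OB *Tmed2* led at 156 ± 19, ahead of *Surf4* at 81.2 ± 7.7. In ESC *Tmed2* led at 47.5 ± 6.4, ahead of *Tmed9* at 37.2 ± 2.0, while *Tmed3* came last at 2.88 ± 0.96 (SD, n = 3). Across populations *Lman1* stood in the order bone GFP+ (hi) at 124 ± 9, bone GFP- at 74.2 ± 25.7, bone chip GFP+ (hi) at 65.1 ± 5.5, bone chip GFP- at 38.6 ± 5.0, ESC-OB at 17.6 ± 1.7 and ESC at 15.9 ± 1.7, in CPM per kilobase. Bone GFP- and bone chip GFP+ (hi) overlapped in this order, as did ESC-OB and ESC. Each source is also its own table, and the TMM factors of the 18 libraries ran from 0.427 to 1.83, so levels across sources are descriptions. Without these factors, as CPM of all counts, *Lman1* had 338, 336 and 370 in bone GFP+ (hi) libraries. Bone GFP- libraries then had 411, 737 and 313. *Tmed2* had 434, 392 and 346 in bone GFP+ (hi) libraries and 694, 524 and 628 in ESC-OB. The place of bone GFP+ (hi) cells in such an order thus depends on the scaling.

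Shares of the 10 genes' summed level per kilobase do not depend on how libraries are scaled. With 3 libraries against 3 the two-sided exact permutation test cannot go below p = 0.10, and after adjustment over 30 comparisons no value was under 0.158. *Tmed3* made up 10.9 to 11.2% of the sum in ESC-OB and 1.07 to 2.24% in ESC, and *Lman1* 3.46 ± 0.45% in ESC-OB and 8.77 ± 0.18% in ESC. In bone *Lman1* made up 8.53 ± 1.02% in GFP+ (hi) cells and 5.46 ± 1.00% in GFP- cells, and in bone chips 8.54 ± 0.31% in GFP+ (hi) cells and 6.85 ± 0.69% in GFP- cells. *Tmed5* took a lower share in the GFP+ (hi) cells of each source, at 0.151 ± 0.044% against 0.236 ± 0.042% in bone, 0.594 ± 0.064% against 1.61 ± 0.25% in bone chips and 1.11 ± 0.15% against 2.22 ± 0.30% for ESC-OB against ESC, with no overlap in any of the 3 (exact p = 0.10 each, adjusted p = 0.158). *Surf4* had 18.7 to 22.2% in bone chip GFP+ (hi) libraries and 15.4 to 16.8% in GFP- libraries. The share of *Tmed9* ran from 3.98 to 19.4% over the ESC-OB libraries, against 19.9 to 21.3% in ESC. Of all counts, the 10 genes together took 0.174 to 0.190% in bone GFP+ (hi) libraries and 0.279 to 0.490% in GFP- libraries, 0.160 to 0.171% in bone chip GFP+ (hi) libraries and 0.167 to 0.187% in GFP- libraries, and 0.246 to 0.266% in ESC-OB against 0.0847 to 0.0906% in ESC.

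**Figure D3:**
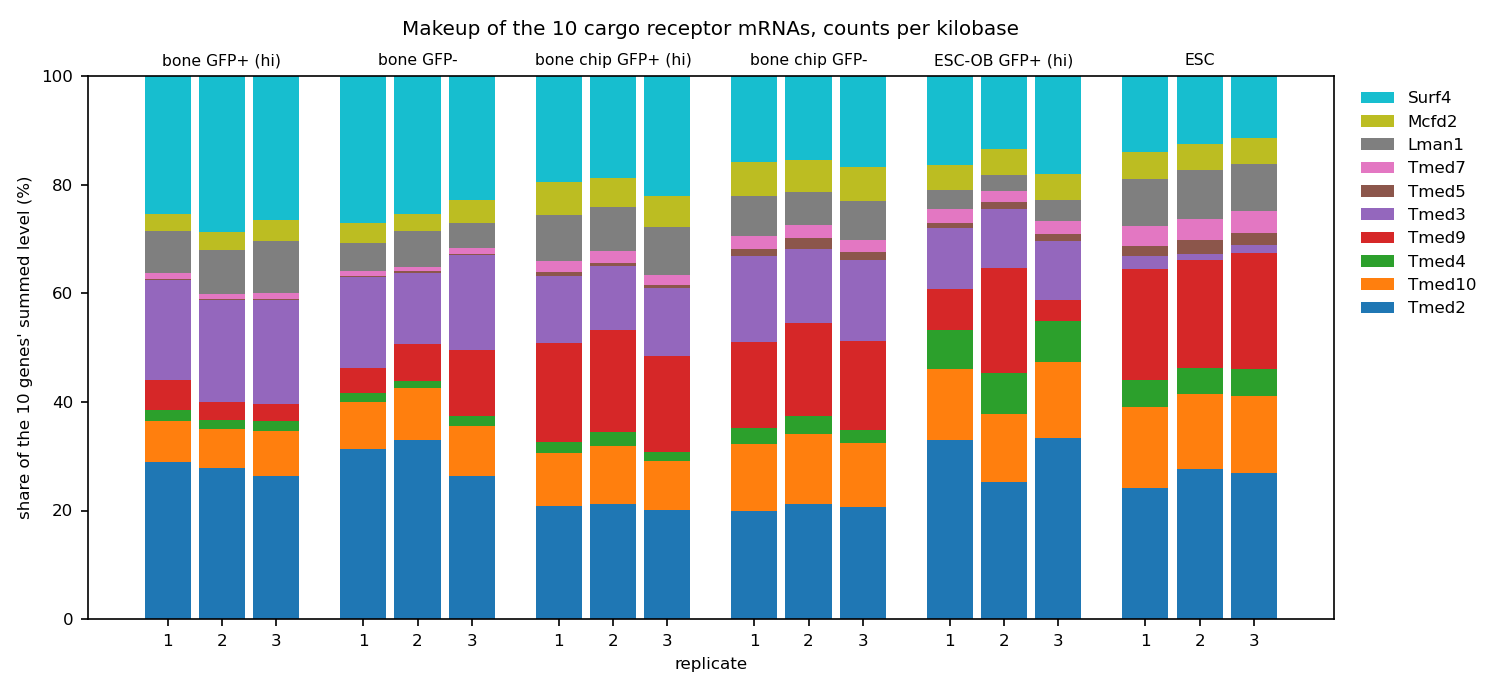
Share (%) of each gene in the summed level per kilobase of the 10 genes, 1 bar per library. *Tmed3* is a wide band in each GFP+ (hi) and GFP- library of bone, at a mean of 18.8% in GFP+ (hi) and 15.8% in GFP- libraries, and a thin one in ESC, at 1.61%, while the *Tmed9* band of ESC-OB replicate 2 reaches 19.4%.

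**Figure D4:**
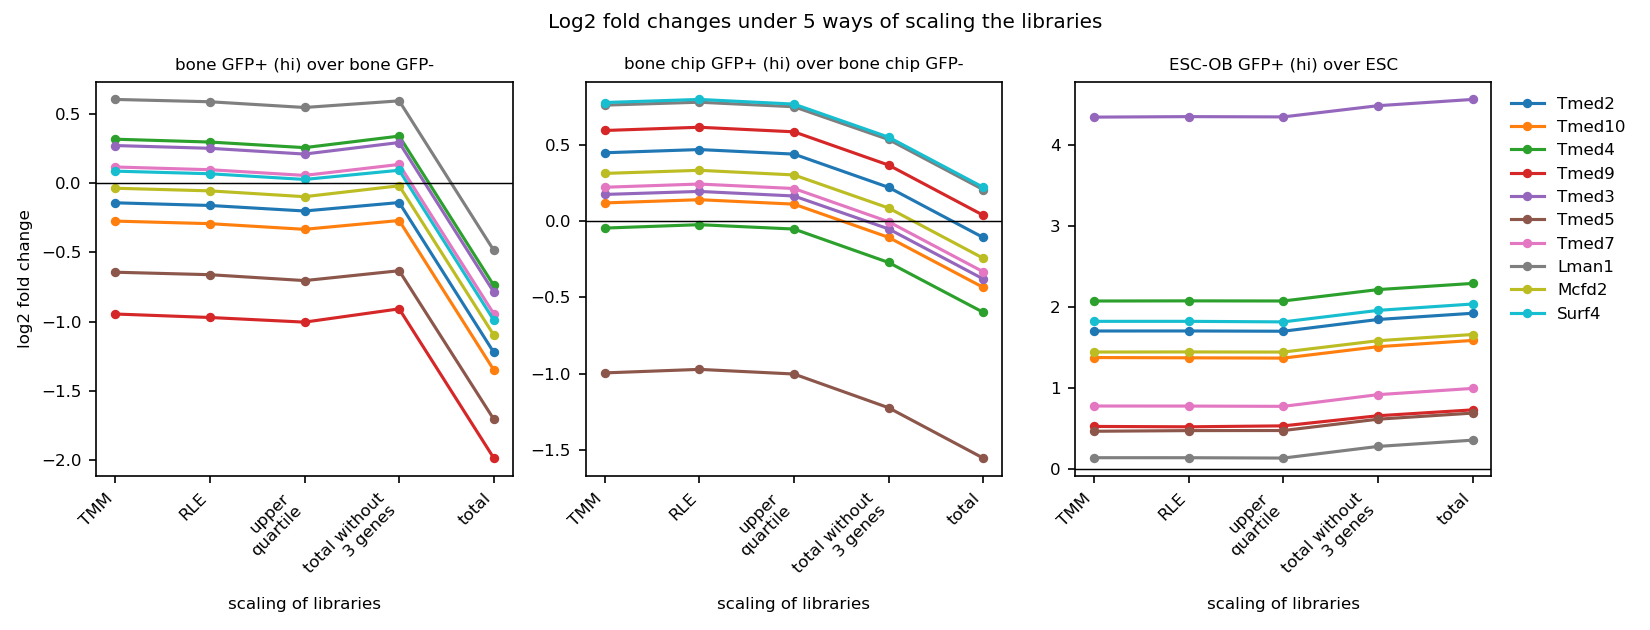
Log2 fold change of each gene under 5 ways of scaling the libraries: TMM, RLE and upper-quartile factors, totals without *Col1a1*, *Col1a2* and *Rn45s*, and totals. In bone every line drops below 0 with totals, *Lman1* to -0.49, and in bone chips *Lman1*, *Surf4* and *Tmed9* stay above 0, at 0.21, 0.22 and 0.04.

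The members lie in mm9 (GENCODE vM1 gene spans) at chr5:124990704-125000515 on the plus strand (*Tmed2*), chr9:89594041-89599881 (*Tmed3*), chr11:6170372-6174873 (*Tmed4*), chr5:108535385-108561639 (*Tmed5*), chr12:86681564-86715667 (*Tmed10*), chr17:87653998-87665275 (*Mcfd2*) and chr2:26775560-26789448 (*Surf4*) on the minus strand, and chr13:55694313-55699027 on the plus strand (*Tmed9*). Levels per kilobase use the union of the exons of a gene in this annotation, 1324 bases for *Tmed3* and 8839 for *Tmed7*, while the counts are of RefSeq genes by the study's methods. *Lman1* and *Tmed7* lie on chromosome 18, at 66140408 to 66182234 and 46719889 to 46757189.

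Genes whose level over the 18 libraries was most like that of a member, by Pearson r of log2 CPM centred within each source, among 9056 genes, were *Cpe*, *Camk2d* and *Fam114a1* for *Tmed3* (r of 0.994 each) and *Tmx1*, *Slc7a6* and *Rnf6* for *Tmed2* (r of 0.974 to 0.979). *Surf4* was most like *Jak2*, *Sec22b* and *Gorasp2* (r of 0.975 to 0.984), and *Tmed7* most like *Tm9sf2*, *Rab2a* and *Rer1* (r of 0.966 to 0.967). *Sec22b* encodes a SNARE of ER to Golgi transport and *Rer1* a retrieval receptor of the Golgi. *Lman1* was most like *Rb1*, *Pgm3* and *Slc31a1* (r of 0.919 to 0.951) and *Tmed5* most like *Tle1*, *Cyb5* and *Nfkb1* (r of 0.866 to 0.872). For *Tmed9* the values were lower, at 0.716 to 0.798 with *Usmg5*, *Cox7a2* and *Polr2k*. Libraries of one group share their source and the contrast of ESC-OB with ESC weighs most, so these are descriptions.

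Other genes of the pathway were counted for context from lists that were drawn up with earlier results of these data known. Of all genes tested, 19.5% were higher and 22.1% lower in bone, 20.4 and 23.1% in chips, and 43.0 and 34.7% in ESC-OB. Of 19 COPII coat and budding genes 9 were higher and none lower in bone, 14 and none in chips, and 12 and none in ESC-OB, with median log2 fold changes of 0.50, 0.50 and 0.83. *Sec24d*, a COPII cargo adaptor, was higher (bone 0.99 ± 0.15, chips 0.77 ± 0.11 on the log2 scale), and so was *Mia3*, which loads large collagen cargo at ER exit sites (bone 1.32 ± 0.15, chips 0.75 ± 0.08). Of 17 COPI and Arf genes 6 were higher in bone, 13 in chips and 11 in ESC-OB, where 1 was lower. Of the p24 and lectin genes outside the 10, none was higher and 1 lower of 5 tested in bone. Chips had 1 and none of 5, and ESC-OB 3 and 1 of 4. *Tmed1* was lower in bone (-1.22 ± 0.15, adjusted p = 0.000213). In ESC-OB *Tmed1* (0.77 ± 0.15, adjusted p = 0.000646), *Lman2* (0.86 ± 0.16) and *Lman2l* (1.40 ± 0.18) were higher, and *Tmed8* was lower (-2.92 ± 0.18, adjusted p = 1.82e-07). *Lman1l*, an *Lman1* paralog, was higher in bone chip GFP+ (hi) cells by 3.999 ± 0.215 (adjusted p = 3.56e-05). Of the other ER export receptors tested, 4 of 16 were higher and none lower in bone. Chips had 10 and 2 of 16, and ESC-OB 8 and 1 of 17. *Kdelr3*, which encodes a receptor that returns ER proteins from the Golgi, was higher in ESC-OB (5.22 ± 0.22) and in chips (1.53 ± 0.08).

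Of the GPI-anchored proteins, the cargo class best known for p24 receptors, 5 were higher and 18 lower of 31 tested in bone, 7 and 17 of 29 in chips, and 26 and 6 of 35 in ESC-OB. *Cd109* was higher in bone chip GFP+ (hi) cells, with a mean of 647 CPM against 76.3 CPM in GFP- cells, and *Thy1* lower, at 1.30 CPM against 12.1 CPM. *Ly6a* averaged 740.2 CPM in ESC-OB and 0.690 CPM in ESC. Of 9 genes that attach or remodel GPI anchors, 1 was higher and 1 lower in bone, 2 and 2 in chips, and 6 and 2 in ESC-OB. Cargoes known for LMAN1, MCFD2 or SURF4 were higher for 4 and lower for 7 of 13 in bone, 1 and 2 of 11 in chips, and 9 and 2 of 12 in ESC-OB. All these counts stand beside 19.5% of all genes higher and 22.1% lower in bone, 20.4 and 23.1% in chips, and 43.0 and 34.7% in ESC-OB. *Ctsz*, an LMAN1 cargo in humans, was higher in ESC-OB (3.81 ± 0.22) and lower in bone (-0.99 ± 0.15).

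Promoters of members were searched for the elements through which the unfolded protein response acts on many ER genes, on both strands, from 250 bases before to 50 after the start. The RefSeq promoter table (GRCm38.p6) held 7 of the 10 genes: *Tmed3*, *Tmed4*, *Tmed5*, *Tmed9*, *Tmed10*, *Mcfd2* and *Surf4*. The ER stress element (CCAAT, any 9 bases, CCACG) was in 0.119% of the 32851 promoters of the table, its variant II (ATTGG, any base, CCACG) in 0.0365%, and the unfolded protein response element TGACGTGG in 0.676%, and none of the 7 held any of them. The shorter CCACG, chosen after the sequences were seen, was in 32.8% of all promoters and in 6 of the 7, all but *Tmed4*. CCAAT, chosen in the same way, was in 37.4% and in 4 of the 7 (*Tmed4*, *Tmed5*, *Tmed9* and *Tmed10*). The search window of *Surf4* has 75.0% G and C and that of *Tmed10* 49.7%, and short motifs vary with such makeup. A match describes letters and is not a bound site. Shown are the promoters of *Tmed3*, which had the largest rise in ESC-OB, of *Tmed5*, which was lower in bone chips, of *Tmed9*, whose estimates had opposite signs in bone and bone chips, and of *Surf4*, which rose in both bone chips and ESC-OB, with CCACG or CCAAT of either strand in capitals:
*Tmed3* promoter: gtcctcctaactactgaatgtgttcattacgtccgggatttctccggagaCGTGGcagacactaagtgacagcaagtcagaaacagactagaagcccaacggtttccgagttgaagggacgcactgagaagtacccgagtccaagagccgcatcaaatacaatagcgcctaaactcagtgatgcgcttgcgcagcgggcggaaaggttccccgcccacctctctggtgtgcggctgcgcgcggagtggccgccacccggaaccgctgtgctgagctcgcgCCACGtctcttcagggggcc
*Tmed5* promoter: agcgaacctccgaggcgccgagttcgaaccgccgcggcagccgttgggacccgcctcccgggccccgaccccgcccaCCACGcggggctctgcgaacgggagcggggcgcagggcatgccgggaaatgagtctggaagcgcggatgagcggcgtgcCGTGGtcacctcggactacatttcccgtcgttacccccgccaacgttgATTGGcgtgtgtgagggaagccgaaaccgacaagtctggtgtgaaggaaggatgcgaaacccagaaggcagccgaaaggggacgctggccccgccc
*Tmed9* promoter: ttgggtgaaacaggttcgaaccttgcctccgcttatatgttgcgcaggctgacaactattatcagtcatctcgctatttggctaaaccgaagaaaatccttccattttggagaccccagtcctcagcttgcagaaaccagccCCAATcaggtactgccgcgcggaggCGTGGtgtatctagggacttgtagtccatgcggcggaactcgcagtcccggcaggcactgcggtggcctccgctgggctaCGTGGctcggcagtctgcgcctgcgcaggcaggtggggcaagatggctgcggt
*Surf4* promoter: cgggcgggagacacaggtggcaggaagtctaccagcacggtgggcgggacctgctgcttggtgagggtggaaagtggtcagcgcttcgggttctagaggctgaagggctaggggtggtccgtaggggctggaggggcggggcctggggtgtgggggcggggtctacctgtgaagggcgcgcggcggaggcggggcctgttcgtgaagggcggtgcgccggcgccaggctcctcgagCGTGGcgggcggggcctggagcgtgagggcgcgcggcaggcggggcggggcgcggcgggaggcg

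These windows are chr9:89704994-89705293 for *Tmed3*, chr5:108132571-108132870 for *Tmed5* and chr2:26933462-26933761 for *Surf4*, all on the minus strand, and chr13:55592885-55593184 on the plus strand for *Tmed9*, in GRCm38.p6. In them *Tmed3* holds CCACG with its first base at -200 and 31 from the start, *Tmed5* at -173 and -94 with CCAAT at -46, *Tmed9* at -83 and -3 with CCAAT at -108, and *Surf4* at -14. *Tmed9* and *Surf4*, which rose in bone chips, and *Tmed5*, which fell there, alike hold CCACG, and none of the 3 longer elements searched was in these windows.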

How the data were processed

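Counts of 18 libraries (6 populations, 3 libraries each) were analysed. From poly-A RNA the authors made paired-end libraries, aligned reads to mm9 with STAR 2.4.2a and compared populations with DESeq2 under R 3.2.2. The deposited tables, 1 per source, hold whole-number counts per gene that are not normalized. The counting tool and its strand setting are not given in the sources used here. Totals of 4920977 to 43874837 counts set the precision.

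Each source was fitted on its own in edgeR 4.0.16 under R 4.3.3 (filterByExpr with a minimum count of 10, TMM, glmQLFit and glmQLFTest, two-sided, no covariates). Adjusted p-values are Benjamini-Hochberg values over all genes tested, called under 0.05. An interaction term over 12 libraries compared the GFP effects in bone and bone chips. Levels across sources are CPM with TMM factors of all 18 libraries, divided by exon length from GENCODE vM1. The likeness measure used log2 CPM with a prior count of 1 and genes with a mean of at least 10 CPM.

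The members and the 14 context and marker lists were chosen with earlier results of these data known. All 10 members are named. Of each list, named genes are up to 4 called genes with the largest changes in a comparison, and for each member the 3 most alike genes. A gene of the cargo list is not reported here. *Tmed1*, *Tmed8*, *Lman1l*, *Pou5f1*, *Klf2*, *Ddx3y*, *Xist* and *Lyz2* and other list genes beyond this were chosen after their values were seen. As alternatives, DESeq2 1.42.0 was run, as were upper-quartile and RLE factors, total counts, totals without 3 abundant genes, other filters, a replicate block, a joint fit of 18 libraries and leaving out each library. A fit on the bone libraries with at least 1 CPM of *Ddx3y* was added after seeing the data. Residuals of same-numbered libraries correlated at 0.149, 0.317 and 0.387 in bone chips, and those of other pairs at -0.352 to -0.0228. The numbers may therefore pair the samples there, which no label states. The main fits were not paired, and the blocked value is given where it changed a call. In bone and ESC-OB no correlation reached 0.1. Fits were tested on simulated data in which 200 genes drawn at any level were changed, far fewer than were called in the real data. Of genes given a log2 change of 1, 26.3% were called in bone, 56.7% in bone chips, 49.0% in ESC-OB and 10.2% in the interaction. For a log2 change of 2 the values were 80.0, 92.9, 86.7 and 61.9%. Python 3.11.15, pandas 2.3.3 and matplotlib 3.10.9 were used.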

Additional observations from a re-analysis of the deposited data

Results flagged for a closer look

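The GFP effect on *Tmed9* was lower in bone than in bone chips by 1.54 on the log2 scale (bone minus bone chips -1.54, edgeR interaction, adjusted p = 0.0131). The interaction call was kept in each fit that left out 1 of the 12 libraries. It was lost with the replicate block (-1.54, adjusted p = 0.0513) and in the joint fit of 18 libraries (-1.39, adjusted p = 0.0871). With the bone libraries that hold *Ddx3y* the value was -1.84. The estimates had opposite signs. In bone the libraries overlapped and the fall of 0.95 was just past the threshold (edgeR, adjusted p = 0.0494), a call lost in several other fits. In bone chips the rise of 0.60 was 0.04 with total counts alone, and was called neither there nor in the joint fit.

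The GFP effect on *Surf4* differed in the same direction, at -0.69 (adjusted p = 0.0424). Its libraries overlapped in bone and lay apart in bone chips. The call was lost in most fits that left out 1 library (-0.75 to -0.47, adjusted p between 0.0516 and 0.124) and in the joint fit (-0.55, adjusted p = 0.0814). It was kept with the replicate block (-0.67, adjusted p = 0.0230). With the bone libraries that hold *Ddx3y* the value was -0.55.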

How the results depend on the processing

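The members called in bone chips and ESC-OB kept most of their number when 1 library was left out. In bone chips 4 to 5 were then higher (beside 15.2 to 21.8% of all genes) and 1 lower (beside 16.7 to 23.6%). In ESC-OB 7 to 9 were higher (beside 39.7 to 44.3%) and 0 lower (beside 29.5 to 34.4%). *Tmed5* was lower in bone chips in every fit. In bone the counts without 1 library were 0 to 1 higher (beside 15.6 to 20.1%) and 0 to 1 lower (beside 16.6 to 23.5%). The number called higher in bone was 1 with no filter on low counts and in DESeq2 (beside 14.8 and 14.4%) and 3 in the joint fit of 18 libraries (beside 27.4%). The number called lower in bone was 2 with upper-quartile factors (beside 23.5%) and 9 with total counts (beside 62.0% of all genes). It was 0 with totals without *Col1a1*, *Col1a2* and *Rn45s*, with the joint fit and with the replicate block (beside 19.9, 23.1 and 19.9% of all genes). In bone chips 0 were higher and 5 lower with total counts (beside 8.24 and 61.7%), 3 higher without the 3 abundant genes (beside 13.6%) and 2 higher in the joint fit (beside 12.8%). The interaction of bone and bone chips called 2 members, *Tmed9* and *Surf4* (beside 30.3% of all genes), and 6 with total counts (beside 36.1%). With the replicate block only *Surf4* was called (beside 28.6%). In the joint fit only *Tmed4* was called, in the other direction (0.51, adjusted p = 0.0464, beside 31.2%). DESeq2 called *Tmed2*, *Tmed9* and *Surf4* (beside 29.0%). Without 1 library 1 to 3 members were called (beside 23.4 to 32.2%).

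With total counts alone the sign turned for *Tmed3* (-0.79), *Tmed4* (-0.74), *Tmed7* (-0.94), *Surf4* (-0.99) and *Lman1* (-0.49) in bone, and for *Tmed2* (-0.11), *Tmed3* (-0.38), *Tmed7* (-0.33), *Tmed10* (-0.43) and *Mcfd2* (-0.24) in bone chips. *Tmed7* in bone chips was at -0.0033 with totals without the 3 genes. Relative to the median of all genes under total counts, these values were 0.27, 0.32, 0.11, 0.07 and 0.57 in bone and 0.49, 0.22, 0.27, 0.16 and 0.35 in bone chips. The replicate block changed no other call in the 3 sources than those of *Tmed9* in bone and *Tmed7* in bone chips. The 4920977 counts of the smallest ESC library leave the folds of scarce genes imprecise. Sources and tables coincide, and bone GFP- cells hold many chondrocyte transcripts, whose part cannot be told apart.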
